A study of Glycine max with 12 samples.

Results

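LOC100792203 is a soybean (Glycine max) gene that the array annotation describes as an FRD3-like member of the MATE efflux family, with the gene identifier GLYMA13G27300. It was taken by that identifier from the annotation text of the array, which held 1 probe set for it, and it is 1 of 32256 genes with a main probe set assigned to a single gene. The probe set lies on the minus strand at chr13:30471532-30477485, in the coordinates of the array annotation, which are those of its transcripts from assembly V1.0. It holds 17 probes, and the annotation matches 17 of 17 to each of both transcripts of the gene, XM_003542805 and GLYMA13G27300.2. The annotation places it in the class of probe sets specific to a single gene, gives its protein the domain Multi antimicrobial extrusion protein, and lists root as its expressing tissue.

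MATE proteins (multidrug and toxic compound extrusion) are membrane carriers that move small organic molecules out of the cytosol in exchange for protons or other cations. Arabidopsis FRD3 releases citrate into the root vascular tissue, where citrate keeps iron soluble on its way to the shoot. Related carriers of sorghum, barley and Arabidopsis release citrate from the root into acid soil, where it binds aluminium ions that otherwise stop root growth. Whether LOC100792203 carries citrate was not measured here.

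The study asked which genes bear on tolerance of aluminium (Al), and measured root RNA of an Al-sensitive variety, Guangfengmaliaodu (GF), and an Al-tolerant variety, KF, on Affymetrix arrays. Per the labels, seedlings were raised in sterile sand for 3 days and then held in 0.5 mM CaCl2 at pH 4.3 for 6, 12 or 24 h, without AlCl3 (control) or with 25 µM of it, so every group, controls included, was in acid calcium solution. With 12 arrays in all, a variety, treatment and time together had 1 array and no replicate, and how many plants gave the RNA of an array is not given in the labels. P-values therefore measure how much an effect varied between times or varieties, not between repeated cultures.

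The median log2 intensity of the main probe sets was 1.67 to 1.70 on all 12 arrays. The array of GF control roots at 24 h stood apart in that 2477 main probe sets exceeded the 95th percentile of the 23 antigenomic background probe sets of the same array, which match no soybean sequence, against 4589 to 8182 on the other arrays. The array of KF roots at 24 h with Al stood apart in its values, with a median correlation of 0.73 with the other arrays over the tested probe sets. The next lowest, 0.86, was that of GF roots at 24 h with Al. The median log2 intensity of the positive control probe sets was lower with Al in 6 of 6 pairs, by 0.41 to 1.32, and that of the intron control probe sets was lower by 0.10 to 0.42. Of the markers of other tissues, 0 of 12 seed storage and 4 to 5 of 58 photosynthesis probe sets passed the 95th background percentile on an array. Of root markers, 5 to 12 of 65 endodermis and 2 to 5 of 7 root hair probe sets passed it. The photosynthesis probe sets summed to 1427 to 1824 on control arrays and 487 to 1691 on Al arrays.

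LOC100792203 was near background in control roots of both varieties and bright in Al-treated roots of both varieties at every time. In GF control roots its deposited intensity, on a linear scale, was 4.44, 2.77 and 2.92 at 6, 12 and 24 h. In GF roots with Al it was 255, 356 and 196 at the same times. In KF control roots it was 20.5, 7.66 and 6.49. All 3 KF control values lay above all 3 GF control values, and the dimmest Al array of either variety was far above the brightest control array. In KF roots with Al it was 355, 446 and 135. The values of the 2 varieties with Al overlapped, with KF holding both the highest value, at 12 h, and the lowest, at 24 h.

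The order of the 4 groups by mean log2 intensity was GF control (1.72 ± 0.37, SD over 3 times), KF control (3.33 ± 0.90), GF with Al (8.03 ± 0.43) and KF with Al (8.12 ± 0.91). The last 2 differed by less than the spread between times. The SD here holds any change with time as well as error, since no time was repeated. The highest control value over the lowest was 1.60-fold in GF and 3.16-fold in KF, and with Al the same ratios were 1.81-fold and 3.30-fold.

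**Figure D1:**
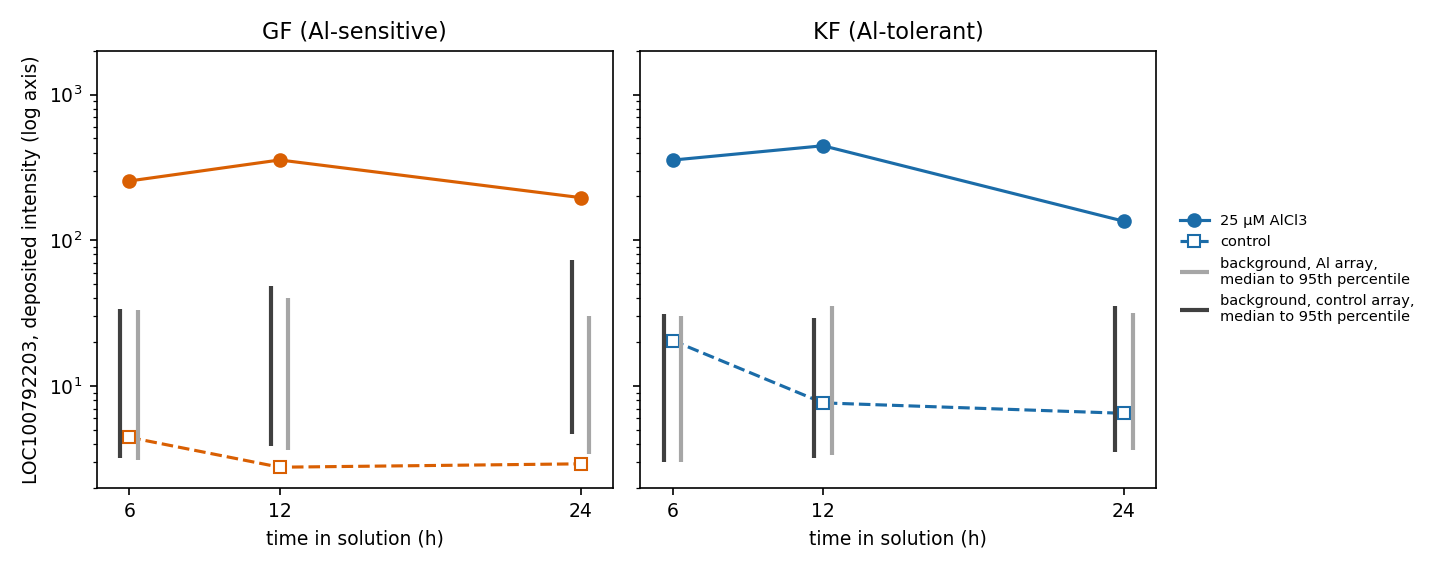
Deposited intensity of LOC100792203 (log axis) against time in solution (h), with GF on the left and KF on the right. Filled points are arrays with 25 µM AlCl3, open squares are control arrays, 1 array per point, and each vertical line runs from the median to the 95th percentile of the background probe sets of 1 array. All 6 Al values lie above those lines, and none of the 6 control values does.

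The control values set how far the response can be measured. The background probe sets had medians of 3.02 to 4.65 and 95th percentiles of 29.3 to 72.8 over the 12 arrays. The gene was above the background median in 1 of 3 GF control arrays (6 h) and in 3 of 3 KF control arrays. It was above the 95th percentile in 0 of 6 control arrays and in 6 of 6 Al arrays. With each control value raised to the 95th percentile of its array, the mean with Al was at least 5.29-fold higher than control in GF and at least 8.72-fold higher in KF. The bounds do not compare the varieties. They depend on the percentiles of the control arrays, 34.0 to 72.8 in GF and 29.3 to 35.5 in KF. The mean log2 intensity with Al was 8.03 in GF and 8.12 in KF. Log2 ratios of the deposited values are larger than these bounds and depend on what a dim spot reads.

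Al raised LOC100792203 in the sensitive variety at all 3 times. At 6, 12 and 24 h the log2 ratio of Al over control in GF was 5.84, 7.01 and 6.07. Among the 49646 tested main probe sets these ratios ranked 3, 1 and 57 from the highest. At least a 2-fold rise was seen in 3.33%, 5.02% and 8.76% of tested probe sets at these times. Over the 3 times the log2 ratio was 6.31 ± 0.39 (SE; 95% interval 5.39 to 7.22; limma adjusted p = 0.0039), which ranked 2 among all tested. In GF, 0.719% of tested probe sets were called higher, meaning an adjusted p below 0.05. The call was lost when the 12 h pair was left out (5.96, limma adjusted p = 0.0592), and also when all 6 h arrays (6.54, adjusted p = 0.0542) or all 12 h arrays (5.96, adjusted p = 0.223) of both varieties were left out. In that order, these fits called 5, 26 and 0 of all tested probe sets in GF, against 411 with all arrays. In these whole-root samples, more cells that use the gene and more RNA of it per cell cannot be told apart.

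The tolerant variety showed the same direction at all 3 times. At 6, 12 and 24 h the log2 ratio in KF was 4.11, 5.86 and 4.38, ranking 78, 32 and 691 among all tested. At least a 2-fold rise was seen in KF in 3.64%, 5.75% and 11.3% of tested probe sets at these times. Over the 3 times it was 4.79 ± 0.39 (SE; 95% interval 3.87 to 5.70; limma adjusted p = 0.00285), which ranked 89, where 2.78% of tested probe sets were called higher. The fit shared an estimate of the spread between the varieties, so the SE is the same in both. Fitted on the KF arrays alone, the log2 ratio was 4.79 with an SE of 0.43 (limma adjusted p = 0.0348). Without the 24 h pair, which holds the KF array that stood apart, the log2 ratio of the shared fit was 4.99 (adjusted p = 0.0057). Without all 12 h arrays the call was lost (4.25, adjusted p = 0.111), in a fit that called 0 of all tested probe sets in KF, against 2719 with all arrays. In both varieties the 12 h pair gave the largest of the 3 ratios.

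Over both varieties the log2 ratio was 5.55 ± 0.28 (SE; limma adjusted p = 0.00026), where 6.59% of tested probe sets were called higher. The gene was higher with Al in 6 of 6 pairs, and an exact permutation test that flips the signs of the pairs (two-sided) gave p = 0.0312, the smallest it can give with 6 pairs. With cyclic loess normalization, which evens out differences between arrays, the ratios were 6.40 in GF and 5.04 in KF. The part of the lower control probe sets on Al arrays in these ratios was not tested.

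**Figure D2:**
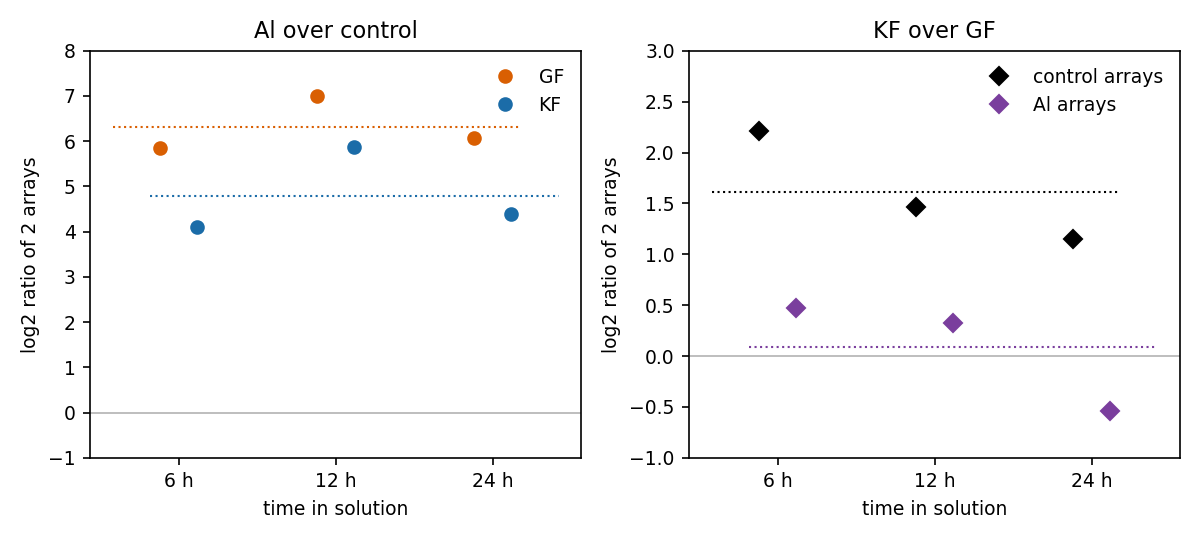
Log2 ratios of LOC100792203 for single pairs of arrays, 1 point per pair and time. Al over control was 4.11 to 7.01 in all 6 pairs, KF over GF was 1.15 to 2.21 in the 3 control pairs, and KF over GF lay on both sides of 0 in the 3 pairs with Al.

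KF read higher than GF in the control arrays, near background, while no difference between the varieties was called in the Al arrays. KF over GF in control roots had log2 ratios of 2.21, 1.47 and 1.15 at 6, 12 and 24 h, ranking 107, 339 and 1243 among all tested. A ratio of at least 2-fold higher was seen in 1.51%, 2.05% and 3.79% of tested probe sets at these times. The mean was 1.61 ± 0.26 (SE; 95% interval 1.01 to 2.21; limma adjusted p = 0.0242) with KF higher in 3 of 3 pairs, where 0.826% of tested probe sets were called higher. Both varieties were below the 95th background percentile here, so no fold is given for it. The call was lost with 8 added to each value (0.71, adjusted p = 0.231), without blocks (adjusted p = 0.365), with values raised to the background median (1.23, adjusted p = 0.167), and without any 1 of the 3 control pairs (without 6 h 1.31, adjusted p = 0.129; without 12 h 1.68, adjusted p = 0.183; without 24 h 1.84, adjusted p = 0.0766). With values raised to the 95th background percentile the sign turned (-0.63, adjusted p = 0.043), since every control value is then the percentile itself, which was 34.0 to 72.8 in GF and 29.3 to 35.5 in KF.

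With Al, KF over GF had log2 ratios of 0.48, 0.32 and -0.54 at 6, 12 and 24 h, and KF was higher in 2 of 3 pairs. The mean was 0.09 ± 0.26 (SE; 95% interval -0.51 to 0.68; limma adjusted p = 0.924), where 1.24% of tested probe sets were called higher. The interval holds both a lower and a higher level in KF, so it does not show that the varieties were alike. Without the 24 h Al pair the mean was 0.40 (adjusted p = 0.595), and without the 6 h Al pair it was -0.11.

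The log2 response to Al was larger in GF than in KF at each time, by 1.73, 1.14 and 1.69 at 6, 12 and 24 h. The mean difference was 1.52 ± 0.55 (SE; 95% interval 0.23 to 2.81; limma adjusted p = 0.953). In that comparison 0.00403% of tested probe sets were called in either direction. The exact two-sided permutation test of the 3 GF ratios against the 3 KF ratios gave p = 0.2, where the smallest possible is 0.1. That test does not use the match on time. An exact test that flips the signs of the 3 time-matched differences gave p = 0.25, the smallest it can give. By arithmetic this difference equals the variety difference in control roots minus that with Al, so it rests on the dim control values. With values raised to the 95th background percentile it turned to -0.72 (adjusted p = 0.613).

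Time in solution moved the gene less than Al did. In control roots the log2 ratio of 24 h over 6 h was -0.60 in GF and -1.66 in KF, where the larger part, -1.42, fell between 6 and 12 h. The mean of -1.13 ± 0.32 (SE; 95% interval -1.86 to -0.40; limma adjusted p = 0.295) was not called. In that comparison limma called 0 probe sets (0%), while 6287 of 49646 had an unadjusted p below 0.05. With Al, the log2 ratio of 12 h over 6 h was 0.48 in GF and 0.33 in KF, and that of 24 h over 12 h was -0.86 in GF and -1.72 in KF. The highest level with Al was thus at 12 h in both varieties. The ratio of 24 h over 6 h with Al was -0.38 in GF and -1.39 in KF, with a mean of -0.89 ± 0.32 (SE; 95% interval -1.62 to -0.16; limma adjusted p = 0.0781), where 14.4% of tested probe sets were called lower. It was called without the GF Al arrays (-1.39, adjusted p = 0.0357), and with cyclic loess it was -0.45 (adjusted p = 0.357).

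The other tested probe sets of the MATE family moved far less than LOC100792203. By name, 70 probe sets of the array belonged to the family and 51 passed the filter on dim probe sets. In GF, LOC100792203 was the 1 member called higher, and 1 was called lower (0.109% of all tested), with 8 of the 51 at an unadjusted p below 0.05. The highest log2 ratio of any other named member in GF was 0.79. In KF, 2 members were called higher and 3 lower. Together they were 9.80% of the 51, against 5.48% of all tested in either direction (2.78% higher and 2.70% lower). The second higher member was LOC100800053, a MATE 7-like gene (1.50 ± 0.31, SE; adjusted p = 0.0382), whose call was lost under 12 of 21 alternatives, among them the fit of the KF arrays alone (adjusted p = 0.148). The members called lower in KF were LOC100813142, similar to the Arabidopsis carrier DTX1 (-1.34), LOC100781278, similar to TRANSPARENT TESTA 12, which moves flavonoids into the vacuole in Arabidopsis (-1.24), and the MATE 9-like LOC100816717 (-1.08). LOC100781278 was also the member called lower in GF (-1.18), and its probes may bind transcripts of several genes. LOC100800053 and the 3 members called lower in KF were left out of the fit with values raised to the 95th background percentile. Whether their changes hold above that percentile was thus not tested. With values raised to the background median, LOC100813142 (-1.26, limma adjusted p = 0.0279) and LOC100781278 (-1.08, adjusted p = 0.0209) kept their calls in KF. LOC100800053 (1.21, adjusted p = 0.0835) and LOC100816717 (-0.54, adjusted p = 0.0718) lost theirs. The median log2 ratio of the 51 was -0.04 in GF and -0.03 in KF, against -0.04 and -0.04 over all tested probe sets.

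For the variety difference in control roots, 2 of the 51 were called (1.26% of all tested in either direction), LOC100792203 and LOC100816717 (1.10, adjusted p = 0.00163). LOC100816717 read 5.06, 4.41 and 5.06 in KF control roots and 2.12 to 2.46 on the other 9 arrays. All of its values lay below the 95th background percentile. With values raised to the background median its call was lost (0.32, limma adjusted p = 0.317). With Al, 1 of the 51 (1.96%) was called higher in KF, LOC100800053 (1.41, adjusted p = 0.0484). Without the 6 h Al pair its value was 0.87 (adjusted p = 0.0757), and the call was lost under 14 of 21 alternatives. LOC100800053 had no fit with values raised to the 95th background percentile here either.

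A gene annotated as a citrate transporter and the second gene with the FRD3 name, both chosen for description after their values were seen, moved less than LOC100792203. The gene with the symbol MATE (GLYMA13G41460), annotated as an aluminum-activated citrate transporter, is in the family by its protein domain. It read 17.9, 21.3 and 11.6 in GF control roots and 32.2, 67.6 and 32.8 with Al. In KF it read 15.0, 19.3 and 11.9 in control roots and 41.9, 51.9 and 30.3 with Al. Like LOC100792203, MATE was highest with Al at 12 h in both varieties. Its log2 ratio of Al over control was 1.34 ± 0.23 (SE; adjusted p = 0.0554) in GF and 1.42 ± 0.23 (adjusted p = 0.0206) in KF, and KF over GF in control roots was -0.12 (adjusted p = 0.856). FRD3b (GLYMA09G15550) stayed at 2.72 to 5.76 on all arrays, with a log2 ratio over both varieties of 0.54 ± 0.14 (SE; adjusted p = 0.0437).

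**Figure D3:**
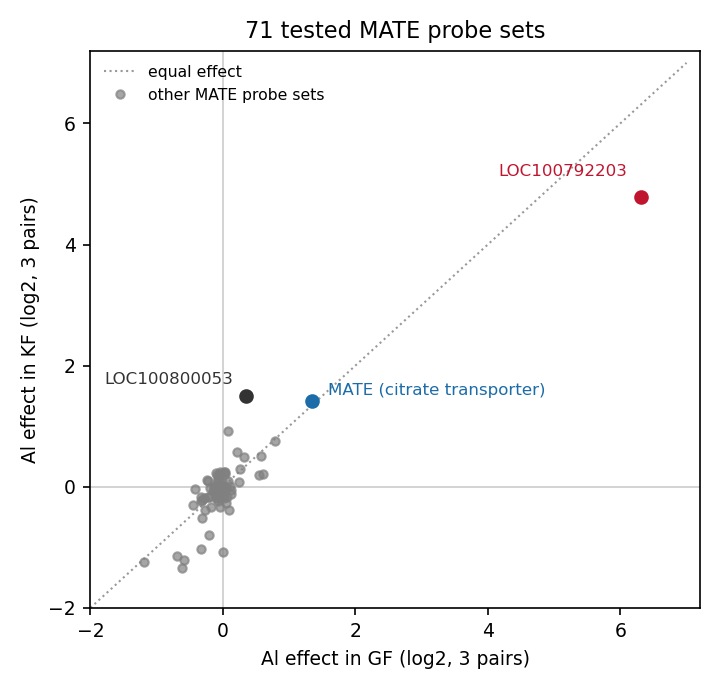
Log2 Al effect in KF (vertical) against GF (horizontal), each the mean of 3 pairs, for the 71 tested probe sets with a MATE name or protein domain. LOC100792203 lies alone at 6.31 and 4.79, and the other 70 reach at most 1.34 in GF and 1.50 in KF.

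Probe sets that the annotation names STOP1-like or ALS3-like moved by less than LOC100792203. STOP1 is a zinc finger factor that in Arabidopsis switches on the citrate and malate carriers under Al, and ALS3 is a transporter needed for Al tolerance there. Of the 8 STOP1-like and ALS3-like probe sets, 8 were tested, 0 were called in GF (5 had an unadjusted p below 0.05 with limma) and 2 were called higher in KF. Of all tested probe sets 0.828% were called in either direction in GF and 5.48% in KF. The 2 called in KF were STOP1 (GLYMA10G35940, 1.06, adjusted p = 0.0398) and LOC100801536 (1.11, adjusted p = 0.0257). The call of STOP1 was lost under 9 of 22 alternatives, among them the fit of the KF arrays alone (limma adjusted p = 0.149). LOC100801536 was left out of the fit with values raised to the 95th background percentile, so its rise above that percentile was not tested. With values raised to the background median it kept its call (1.11, limma adjusted p = 0.0217), but the call was lost under 5 of 21 alternatives. Over both varieties 4 of the 8 were called higher, STOP1 (0.90), LOC100801536, the ALS3-like LOC100802735 (1.26) and the STOP1-like LOC100804910 (1.52). The median of the 8 was 0.89 in GF and 0.87 in KF, and the share called over both varieties was 50%, where 13.8% of all tested probe sets were called in either direction.

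ALMT proteins are anion channels, some of which release malate in place of citrate. Of 28 ALMT probe sets 19 were tested, 0 were called in GF (0 at an unadjusted p below 0.05 with limma) and 3 were called in KF, all lower, where 2.70% of all tested were called lower. They were LOC100809994 (-1.50), ALMT16 (-1.11) and a probe set of several genes (-1.80). LOC100809994 and ALMT16 were left out of the fit with values raised to the 95th background percentile, so their fall above it was not tested. With values raised to the background median, LOC100809994 kept its call (-1.37, limma adjusted p = 0.024) and ALMT16 lost it (-0.93, adjusted p = 0.0918). The call of ALMT16 was lost under 14 of 21 alternatives. Of 54 tested probe sets of citrate and malate enzymes 0 were called in GF (8 at an unadjusted p below 0.05 with limma) and 2 in KF (3.70%, below the 5.48% of all tested), both malic enzymes without a symbol, which turn malate into pyruvate (1.58 and 1.67). In control roots 1 (1.85%, near the 1.26% of all tested) was called between varieties, LOC100777867, a subunit of the mitochondrial isocitrate dehydrogenase (1.47 higher in KF, adjusted p = 0.0346). Its call was lost under 10 of 22 alternatives, and with values raised to the 95th background percentile its sign turned (-0.49). Of 32 tested iron genes 0 were called in GF or KF, with 5 and 6 at an unadjusted p below 0.05 with limma. Over both varieties, where 7.19% of all tested were called lower, 4 iron genes were, the ferritins H-1 (-1.41), LOC547698 (-1.37) and SFERH-4 (-0.68), which store iron, and the vacuolar iron transporter LOC100793585 (-0.83). The 1 called higher was LOC100814343 (0.29), named after its value was seen.

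Raised by Al in both varieties and higher in KF control roots, LOC100792203 shared its pattern of calls with a pair of other probe sets. In all, 308 probe sets were called higher with Al in GF and in KF, 3 of them (0.974%) were also called higher in KF control roots, and 1 was called lower there (0.435% of all tested). Of all tested probe sets 0.826% were called higher in KF control roots, so the share among the 308 was near the background. The other 2 were LOC100793934, annotated as an L-ascorbate oxidase homolog (control difference 1.57, adjusted p = 0.0347), and LOC100775414, a lipid phosphate phosphatase 1-like gene (0.94, adjusted p = 0.0448). LOC100775414 read below the 95th background percentile on every array. LOC100793934 kept its variety difference with Al (1.51, adjusted p = 0.0298), while those of LOC100792203 (0.09) and LOC100775414 (0.43, adjusted p = 0.284) were not called.

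The genes beside LOC100792203 on the chromosome were not called. Its 8 nearest main probe sets, 4 on each side, lay 1833 to 52056 bases away, none overlapped it, and all 8 were tested. In GF, in KF and for the variety difference in control roots, 0 of the 8 were called by limma. Of all tested probe sets 0.828%, 5.48% and 1.26% were called in these comparisons, so 0 of 8 was near the background. In each comparison 1 of the 8 had an unadjusted limma p below 0.05, against 7667, 13271 and 6682 of all 49646. The smallest adjusted p for Al was 0.0937. The nearest, GLYMA13G27290 on the other strand, had a log2 ratio of Al over control of -0.25 in GF and -0.24 in KF. The largest among the 8 was 0.74, for GLYMA13G27320 in KF, with 3 of 3 pairs higher. The brightest value of any of the 8 was 31.1.

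**Figure D4:**
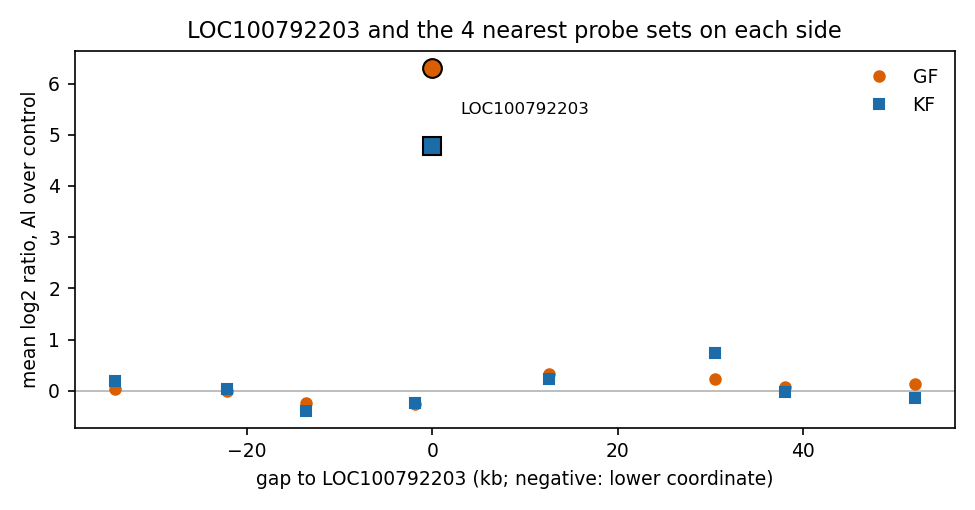
Mean log2 ratio of Al over control in GF (circles) and KF (squares) for LOC100792203 and the 4 nearest main probe sets on each side, against the gap to the gene (kb). The 16 values of the neighbours lie between -0.39 and 0.74, and those of LOC100792203 are 6.31 and 4.79.

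Likeness of pattern was measured as the Pearson correlation of log2 intensity over the 12 arrays, among 28743 tested probe sets with 1 gene. The 10 best had r of 0.971 to 0.982, and 49 probe sets passed 0.95. These are descriptions over arrays that share the split into control and Al, which any strongly raised gene follows, and over the 6 pair ratios alone r was 0.03 to 0.89. Of the 10 genes, 9 were called higher with Al in both varieties, against 308 of all 49646 tested probe sets. In control roots, 5 of the 10 were higher in KF than GF in 3 of 3 pairs, a share not counted over all tested. For that difference 1, LOC100775414, was called, where 1.26% of all tested were called in either direction. The choice of the 10 fixed the Al direction. It also used the control arrays, where LOC100792203 itself was higher in KF in 3 of 3 pairs. The list was loose, since 1 of the 10 stayed among the 10 best by Spearman correlation and 5 of the 10 without the 24 h arrays.

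LOC100797696, an uncharacterized gene, was the one of the 10 with a rise of like size. It read 3.75, 3.16 and 3.07 in GF control roots and 129, 243 and 279 with Al at 6, 12 and 24 h. In KF it read 16.7, 2.83 and 3.88 in control roots and 275, 287 and 45.5 with Al. It shared with LOC100792203 the highest control value in KF at 6 h and the drop in KF with Al at 24 h, but not the lower values at 24 h in GF with Al. Its log2 ratio of Al over control was 5.96 ± 0.58 (SE; adjusted p = 0.00988) in GF and 4.75 ± 0.58 (adjusted p = 0.00891) in KF. LOC100775558 is annotated as a mitochondrial carrier of 2-oxoglutarate and malate, organic acids next to citrate in metabolism, and its ratios were 3.43 in GF and 3.44 in KF. The other 8 were LOC100807884 and LOC100795803, aspartic proteinases, LOC100779666, uncharacterized, LOC100818271, a glycosyltransferase, LOC100799745, a GATA factor, LOC100803617, an F-box protein, LOC100775414, and LOC100804756, a bHLH factor. Their ratios were 0.80 to 3.38 in GF and 0.64 to 2.92 in KF, with LOC100818271 the lowest in both (adjusted p = 0.137 in GF and 0.100 in KF).

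**Figure D5:**
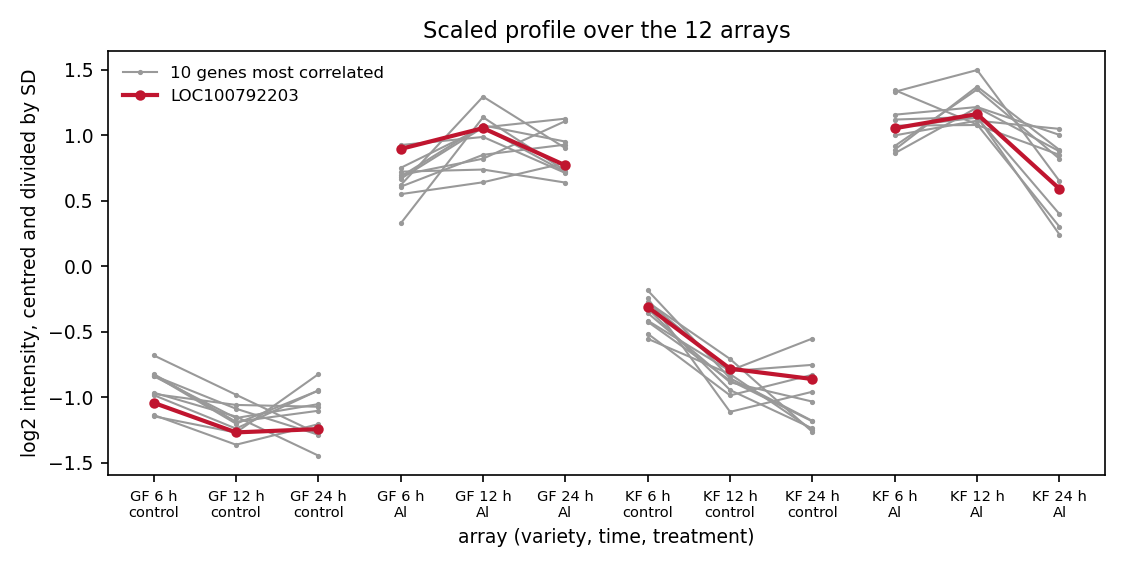
Log2 intensity of LOC100792203 (red) and the 10 genes most correlated with it (grey) on the 12 arrays, each centred on its mean and divided by its SD. All 11 profiles are low in the 6 control arrays and high in the 6 Al arrays, and within the control arrays all 11 are highest in KF at 6 h.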

How the data were processed

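Root RNA of 12 soybean samples was hybridised to Affymetrix arrays, 1 array per variety, treatment and time. Per the labels, biotin-labelled cDNA was made from 0.1 µg of total RNA. The values used are deposited intensities on a linear scale, normalized across arrays by the authors with a method not given in the sources used here. Not used here were 24 deposited columns whose names correspond to no label of a sample. Of 66195 main probe sets, the lowest 0.25 by mean (below 1.12 on the log2 scale of the deposited values, pseudocount 0) were left out. The 49646 others were fitted with limma 3.58.1 (lmFit, eBayes with trend) in R 4.3.3, and p-values were adjusted by Benjamini-Hochberg over all of them. The Al fits had blocks of variety and time, the variety fits blocks of treatment and time, and the time fits blocks of variety and treatment, with 4 residual degrees of freedom each. These fits used all 12 arrays, with the spread estimated over all of them, and are limited in precision by the number of arrays. They were tried on simulated data, except for the response difference, GF minus KF, and the time contrast with Al.

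The gene and the lists were chosen with earlier results of these data known. Lists were matched on annotation text. Of 33493 main probe sets with 1 gene, 31963 had their identifier in the RefSeq table of assembly Glycine_max_v4.0, which was used for symbols only. Named genes were LOC100792203, the 10 genes correlating best with it, and up to 4 called members of a list per comparison by absolute change. The planned choice of family members by protein identity and the search for promoter motifs were not run, since no sequences were used here. Alternatives changed the normalization, pseudocount, filter, variance, blocks, arrays and floor.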

Additional observations from a re-analysis of the deposited data

How the results depend on the processing

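The Al effect over both varieties was called under all 21 alternatives (2.76 to 5.83, adjusted p at most 0.0382), that in GF under 19 of 22 and that in KF under 21 of 22. With pairs left out in turn the log2 effect was 5.96 to 6.54 in GF (adjusted p 0.00181 to 0.0592) and 4.25 to 5.12 in KF. In GF the call was lost without the 12 h pair (5.96), without all 6 h arrays (6.54) and without all 12 h arrays (5.96), and in KF without all 12 h arrays (4.25); these fits hold fewer arrays. The variety difference in control arrays was called with the same sign under 12 of 22 alternatives. Its value was 0.71 with pseudocount 8, 1.61 without blocks (adjusted p = 0.365) and with additive time (adjusted p = 0.126), 1.31 without 6 h arrays (adjusted p = 0.177), 1.68 without 12 h arrays (adjusted p = 0.288), 1.31 to 1.84 with pairs left out, 1.23 with the background median as floor, and -0.63 with the 95th percentile as floor. Both floors were chosen after seeing the data. The variety difference with Al was -0.11 to 0.40 with pairs left out, reversing to -0.11 without the 6 h pair or arrays and to -0.03 without the 12 h pair (-0.031 without all 12 h arrays). The response difference, GF minus KF, was 1.17 to 2.06 with pairs left out and -0.72 with the 95th percentile floor. The time contrast was -1.66 to -0.60 with arrays left out and 0.65 with that floor in control roots (adjusted p = 0.123). With Al it was -1.39 to -0.38, called without the GF Al arrays (-1.39) and with that floor (-0.89, adjusted p = 0.0168). The cause of these changes was not tested beyond what the floors and the smaller fits do by construction.

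Single pairs of Al over control fell with pseudocount 8 to 4.40, 5.08 and 4.23 in GF at 6, 12 and 24 h, and to 4.86 and 3.30 in KF at 12 and 24 h. With the 95th percentile floor they were 2.91, 2.87 and 1.43 in GF and 3.93 and 1.93 in KF. KF over GF in control pairs was 1.20, 0.54 and 0.41 with pseudocount 8 and -0.13, -0.73 and -1.03 with that floor. Of 690 values of other named genes under alternatives, 507 kept direction and side, 176 kept direction and lost the call, 3 gained a call (LOC100818271 for Al in KF, adjusted p 0.0453 to 0.047), and 4 reversed with that floor, LOC100777867 between control roots (-0.49) and, for Al in GF, LOC100818271 (-0.49), LOC100799745 (-0.53) and LOC100804756 (-0.53). Of the 30 effects of these genes that were called with all arrays, 25 lost the call without at least 1 pair of arrays. Over alternatives the number of called probe sets was 0 to 1423 for Al in GF, 0 to 6621 in KF, 93 to 10604 over both and 75 to 4255 between control roots, against 411, 2719, 6841 and 626. The blocks of the Al and variety fits pair arrays by time; the labels give no replicate numbers for any further block. For the time contrasts additive time and the removal of 6 h or 24 h arrays give no value. Leaving out both 24 h pairs is the same fit as leaving out the 24 h arrays.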
